A study of Mus musculus with 8 samples.

Results

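The intestine keeps its identity and its regions through a small group of transcription factors. The 7 described here, Gata4, Gata6, Cdx1, Cdx2, Onecut2, Hnf4a and Hnf4g, were taken by their gene names from the 55114 genes measured in intestinal crypts of Mex3a knockout and control mice, and all 7 passed the filter on low counts. MEX3A is an RNA-binding protein found in intestinal stem cells, and the comparison asks whether its loss went along with a change in regional regulators such as Gata4, as it would if the KO crypts resembled another stretch of gut. No factor passed the threshold after adjustment over all genes. Onecut2 was lower in all 4 KO mice than in any WT mouse, where the genotypes did not overlap for 4.05% of all genes. Of the 7 it alone had an unadjusted p under 0.05, where 3.05% of all genes were lower and 5.33% higher at that p. The count of lower factors was 2 with mice paired by replicate number, a pairing that the labels do not give, and 2 without WT replicate 2. Gata4 (unadjusted p of 0.0330 and 0.0391 by edgeR) was the second.

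The mice were C57BL/6 animals 8 weeks of age, 4 with the genotype Ctrl (here WT) and 4 with the genotype Mex3a-/- (here KO), and each sample came from a separate mouse. The KO is constitutive, so every cell of the body lacks the first exon of Mex3a and part of the second, and the WT mice were littermates. Crypts were loosened from the intestine with EDTA, shaken off and strained, and their total RNA was sequenced in bulk. The labels name the tissue only as intestine and give no segment. Gata6, Cdx1 and Onecut2 all lie on chromosome 18, at positions 11052064 to 11085635, 61018862 to 61036199 and 64340364 to 64398488 in the deposited table. The deposited start and end of 6 of the 7 factors are those of GENCODE M21 (GRCm38), and those of Onecut2 differ from it. Because the RNA is from bulk crypts, fewer cells of a type and less RNA per cell cannot be told apart for any gene below.

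GATA4 and GATA6 are zinc-finger factors of the gut endoderm. GATA4 is made in the upper small intestine and is absent from the distal ileum, and when mice lose it, ileal genes such as those of bile acid uptake come on in the jejunum. GATA6 is made along the whole small intestine. CDX2 and CDX1 are caudal-type homeobox factors that keep intestinal epithelium from taking on a gastric character, with CDX2 the master factor and both graded along the gut. ONECUT2 is a cut-domain homeobox factor expressed in the upper small intestine, and HNF4α and HNF4γ are nuclear receptors that jointly drive the genes of absorptive enterocytes. MEX3A has been reported to bind the CDX2 transcript and lower CDX2 in human gastrointestinal cells.

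Total counts in genes ran from 20324184 to 24726221 in the WT mice and from 23489180 to 30654105 in the KO mice. Mex3a itself had 236 to 328 counts in the WT mice and 6 to 28 in the KO mice, and its log2 fold change of -4.43 ± 0.43 (SE, n = 4 per group) was the only one under an adjusted p of 0.05 among 16109 genes tested (edgeR quasi-likelihood test with Benjamini-Hochberg adjustment, adjusted p = 0.0310). That is 0.00621% of the genes tested. Without adjustment, 859 genes (5.33%) were higher in KO and 491 (3.05%) were lower at a p under 0.05. For 652 genes (4.05%) the 2 genotypes did not overlap. The crypt markers were high in all mice, with mean levels of 1593 CPM (counts scaled to library size) in WT and 1668 CPM in KO for Epcam, an epithelial surface protein, and 87.8 and 62.1 CPM for Lgr5, a stem cell receptor. Mice numbered 1 and 2 of each genotype held Y-linked and mice 3 and 4 held Xist RNA, so 2 mice of each kind stand in each genotype.

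Onecut2 was the factor that differed most between the genotypes. It stood at 97.9, 90.2, 98.3 and 81.4 CPM in WT replicates 1 to 4 and at 71.7, 50.8, 41.2 and 68.5 CPM in KO replicates 1 to 4. The 2 groups did not overlap, as was so for 4.05% of all genes, and KO replicates 2 and 3 were the lowest of the 8 mice. The means were 91.9 ± 7.97 CPM in WT and 58.0 ± 14.5 CPM in KO (SD, n = 4 each), a KO level 0.631 times that of WT. The log2 fold change was -0.66 ± 0.17 (SE; 95% interval -1.04 to -0.29), and edgeR gave an unadjusted p of 0.00295 (adjusted p = 0.518 over all genes tested). An exact two-sided permutation test of log2 CPM gave p = 0.0286, the smallest that 4 against 4 mice allow. Blocking by replicate number gave a difference of -0.69 (adjusted p = 0.222 by edgeR). DESeq2 was the one alternative in which Onecut2 passed, with an adjusted p of 0.0376. The log2 ratio of the group means was -0.62 in the mice without Xist RNA and -0.71 in those with it.

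**Figure D1:**
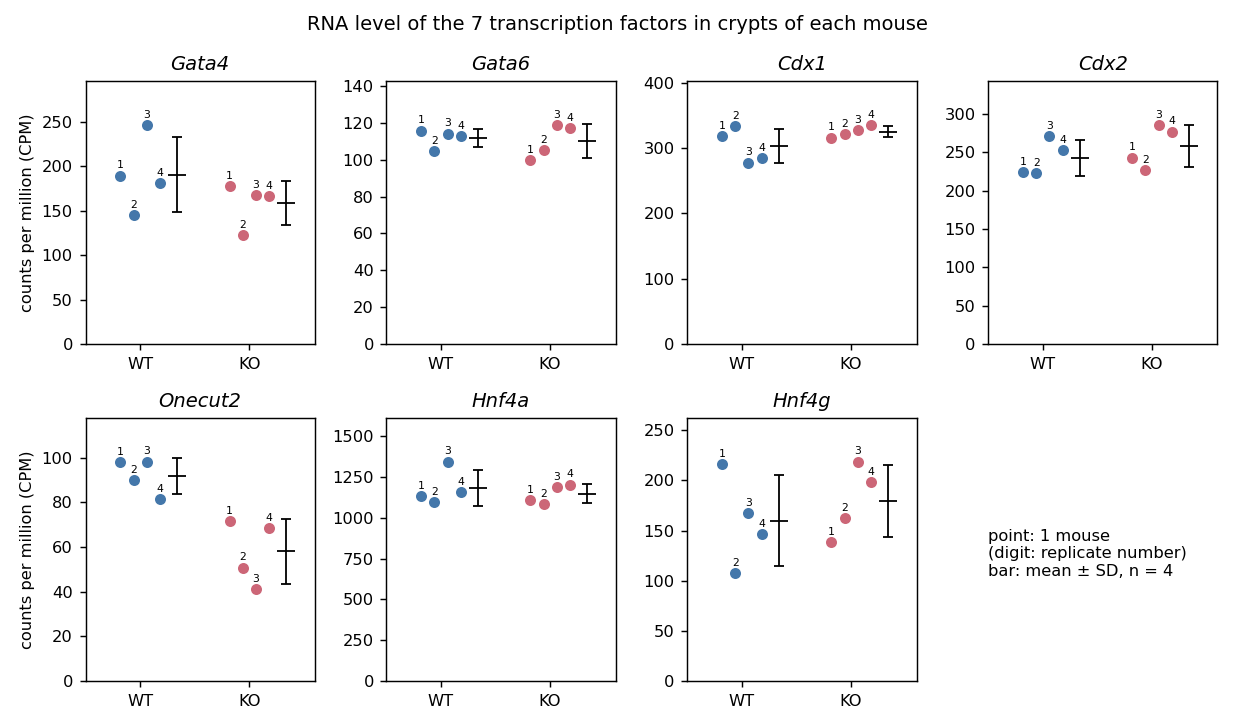
Each panel plots the RNA level of 1 factor in CPM (linear axis from 0) for the 4 WT and the 4 KO mice, with 1 point per mouse marked by its replicate number and the mean ± SD (n = 4) as a bar. Onecut2 is the 1 panel in which the KO points (41.2 to 71.7 CPM) all lie below the WT points (81.4 to 98.3 CPM), and the groups overlap in the other panels. Over all genes tested, 4.05% did not overlap.

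Gata4 varied more among mice than it did between genotypes. It measured 189, 145, 247 and 181 CPM in WT replicates 1 to 4 and 178, 123, 168 and 166 CPM in KO replicates 1 to 4. The highest mouse was WT replicate 3 and the lowest was KO replicate 2, and the groups overlapped because WT replicate 2 lay below 3 of the KO mice. The means were 191 ± 41.9 CPM in WT and 159 ± 24.5 CPM in KO (SD, n = 4 each). The log2 fold change was -0.26 ± 0.17 (SE; 95% interval -0.64 to 0.11; edgeR adjusted p = 0.702; exact permutation p = 0.286). The interval holds a KO level somewhat above that of WT as well as one well below it. In each of the 4 numbered pairs the KO mouse was below the WT mouse of the same number. Same-numbered mice deviated together over all genes, by the check given with the methods, but they also share the presence of Xist or Y-linked RNA. That check therefore does not show that the numbers are true pairs. The estimate blocked by number was -0.25, for which edgeR gave 0.0330 as the unadjusted p (adjusted p = 0.398). The estimate ran from -0.37 without WT replicate 2, where the unadjusted edgeR p was 0.0391, to -0.11 without WT replicate 3.

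Gata6 was the steadiest of the 7 between genotypes. Its levels were 116, 105, 114 and 113 CPM in WT replicates 1 to 4 and 99.8, 105, 119 and 117 CPM in KO replicates 1 to 4. Both groups covered nearly the same range, with a log2 fold change of -0.02 ± 0.077 (SE; 95% interval -0.19 to 0.15; exact permutation p = 0.83, edgeR adjusted p = 0.970). Its direction was not stable, being above 0 without KO replicate 1 or without KO replicate 2. A noncoding gene on the opposite strand, 1010001N08Rik, overlaps the start of Gata6 and had 328 to 457 counts per mouse, against 2243 to 3524 for Gata6. The strand setting of the counting is not given in the sources used here, so reads from the shared stretch may have come from either gene. Within a mouse, the Gata4 level per length was 2.31 to 3.60 times that of Gata6 in WT and 1.95 to 2.97 times in KO, and these ranges overlapped too.

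No difference was detected for either caudal-type factor. Cdx2 stood at 224, 223, 271 and 253 CPM in WT replicates 1 to 4 and at 243, 226, 286 and 277 CPM in KO replicates 1 to 4. Mice 3 and 4 were the highest in both genotypes, the groups overlapped, and every KO mouse exceeded its same-numbered WT mouse. The log2 fold change was 0.09 ± 0.10 (SE; 95% interval -0.14 to 0.31) (exact permutation p = 0.429, edgeR adjusted p = 0.858). Cdx1 stood at 318, 333, 278 and 285 CPM in the WT mice and 316, 321, 328 and 335 CPM in the KO mice. The 4 KO mice lay close together within the range of the WT mice except for KO replicate 4, which was highest of all. Its log2 fold change was 0.10 ± 0.079 (SE; 95% interval -0.08 to 0.28; exact permutation p = 0.229, edgeR adjusted p = 0.777). The log2 ratio of the Cdx1 means was -0.03 in the mice without Xist RNA and 0.24 in those with it. In every mouse Cdx1 had the higher level per length of the pair, 1.32 to 1.93 times that of Cdx2 in WT and 1.48 to 1.83 times in KO.

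The nuclear receptors also overlapped between genotypes. Hnf4a, the more abundant, measured 1135, 1095, 1344 and 1156 CPM in WT replicates 1 to 4 and 1107, 1086, 1189 and 1204 CPM in KO replicates 1 to 4. WT replicate 3 was the highest mouse, as it was for Gata4, and the remaining values formed 1 mixed group. The log2 fold change was -0.04 ± 0.093 (SE; 95% interval -0.25 to 0.16; exact permutation p = 0.686, edgeR adjusted p = 0.940), and without WT replicate 3 it was 0.03. Hnf4g had the largest standard error of the 7 fold changes, with 216, 108, 168 and 147 CPM in the WT mice and 139, 162, 219 and 198 CPM in the KO mice. WT replicate 1 and KO replicate 3 were nearly level at the top and WT replicate 2 was lowest. Its log2 fold change was 0.17 ± 0.21 (SE; 95% interval -0.31 to 0.64; exact permutation p = 0.543, edgeR adjusted p = 0.876), and the log2 ratio of the means was -0.11 in the mice without Xist RNA and 0.41 in those with it. The antisense gene Hnf4aos overlaps Hnf4a and had 13 to 39 counts per mouse, against 23437 to 36213 for Hnf4a. Of the 3 small genes on the same strand within a member, Gm25881 in Hnf4a and Gm37000 and Gm23237 in Hnf4g, none had more than 9 counts in a mouse.

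**Figure D2:**
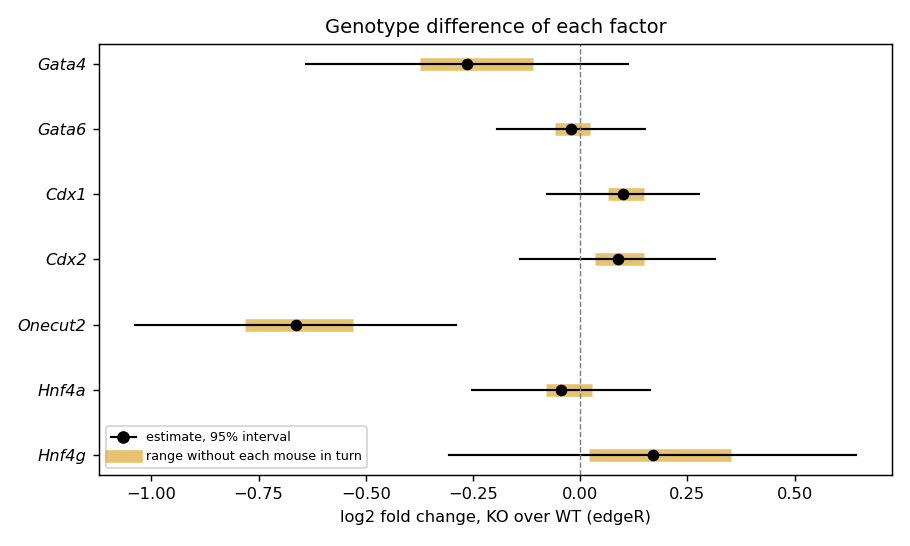
The plot gives the log2 fold change of KO over WT from edgeR for each factor (horizontal axis), with the 95% interval as a line and, as a thick bar, the range of estimates when each of the 8 mice is left out in turn. The interval of Onecut2 (-1.04 to -0.29) lies below 0, and those of the other 6 factors include 0.

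Compared per length, on the deposited FPKM scale (fragments scaled to gene length and library size), the order of levels in WT was Hnf4a with a median of 234 FPKM, Cdx1 with 170.0, Cdx2 with 104, Hnf4g with 59.4, Gata4 with 46.9, Gata6 with 17.3 and Onecut2 with 6.95. The order was the same in KO, with medians of 237, 185, 115, 68.4, 42.6, 17.0 and 4.44 FPKM. Neighbours in this order did not overlap among the 4 mice of a genotype, except for Hnf4g and Gata4, whose WT levels ran from 40.6 to 81.1 and from 37.0 to 63.0 FPKM. In KO the levels of Hnf4g (52.7 to 82.8 FPKM) and Gata4 (31.4 to 45.6 FPKM) stood apart. Hnf4a exceeded Hnf4g by 2.86 to 5.54 times in WT mice and by 2.96 to 4.35 times in KO mice. The low level per length of Onecut2 goes with a long transcript: the gene was counted over 13391 bases, and 951 to 2119 reads stood behind it in each mouse.

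Because MEX3A binds RNA, the 3'UTR of each factor was searched for the MEX3A recognition element, a pair of short half-sites separated by up to 8 bases. Such matches are common: among 12989 genes in the test whose 3'UTR is annotated, 74.3% had 1 or more, and the median gene had 2, or 2.09 per kilobase. Onecut2, whose annotated 3'UTR of 14356 bases is by far the longest of the 7, held 58 matches, against a median of 41.5 among genes with a 3'UTR of similar length. This GENCODE M21 3'UTR is longer than the 13391 bases over which the deposited table counted Onecut2, so the stretch searched is from another gene model than the one measured. Against such medians, Gata6 held 5 (median 3) and Cdx1 held 4 (median 2), while Hnf4a held 5 (median 7), Gata4 held 2 (median 3) and Hnf4g held 1 (median 2). The 3'UTR of Cdx2, 1037 bases long, held none, while 83.5% of genes with a 3'UTR of similar length held 1 or more. A match is a string in the annotation and was not measured as a binding site here, and the lack of one says only that these letters do not occur in that stretch.

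The matches in Gata4 and Hnf4g and the 2 overlapping matches of Hnf4a are printed to show what such an element looks like in the factors asked about, 5′ to 3′ on the strand of the gene with 6 bases on each side and the half-sites in capitals. All lie in the 3'UTR within the last exon. The first Gata4 match is at chr14:63199941-63199955 and the second at chr14:63199485-63199498 on the minus strand, that of Hnf4g is at chr3:3657981-3657992 and those of Hnf4a are at chr2:163571156-163571168 and chr2:163571159-163571168 on the plus strand (GRCm38, GENCODE M21).
Gata4, first match: acagtcTGAGcagggtgTCTActtgtt
Gata4, second match: ccctctGGAGgttgtgTCTAcagcac
Hnf4g: gacaaaGGAGtcttTCTAgagtaa
Hnf4a, first of the overlapping matches: aggataTGAGgaggcTATActggag
Hnf4a, second of the overlapping matches: atatgaGGAGgcTATActggag
The overlapping pair in Hnf4a ends on the same downstream half-site, so it is a single place counted once for each upstream half-site. Gata4 lies at chr14:63198922-63271692, Cdx2 at chr5:147300805-147307270, Hnf4a at chr2:163506808-163572910 and Hnf4g at chr3:3508030-3658052.

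The KO mice with the least Onecut2 RNA also held the least RNA of the stomach and of Pdx1, a homeobox factor of the pancreas, duodenum and distal stomach. The 16 gastric genes listed, among them the gastrokines Gkn1 and Gkn2 and the gastric mucin Muc5ac, summed to 59.9, 272, 160 and 1524 CPM in WT replicates 1 to 4 and to 397, 44.3, 10.3 and 304 CPM in KO replicates 1 to 4. KO replicates 2 and 3 were the lowest of the 8 mice and WT replicate 4 was the highest. Of the 11 that were tested, only Gif, which encodes gastric intrinsic factor, had an unadjusted p under 0.05 (log2 fold change -1.95, edgeR adjusted p = 0.533), beside 3.05% of all genes lower at that p, and the median was -1.12. The count of 1 was 4 without KO replicate 1, 0 without WT replicate 4 and 2 with the replicate block. Among the WT mice, replicate 1 had the least gastric RNA and 97.9 CPM of Onecut2, and replicate 4 had the most gastric RNA and 81.4 CPM of Onecut2. Pdx1 stood at 7.72, 8.69, 12.5 and 5.35 CPM in the WT mice and 9.61, 3.03, 1.95 and 7.61 CPM in the KO mice. Its lowest values were again those of KO replicates 2 and 3. The log2 fold change of Pdx1 was -0.62 ± 0.47 (SE; exact permutation p = 0.257, edgeR adjusted p = 0.765), and -1.02 to -0.34 without 1 mouse. Without these 2 mice, an alternative chosen after the values were seen, the log2 fold change of Onecut2 was -0.39 ± 0.10 (SE; edgeR adjusted p = 0.9999). They are also the 2 mice lowest in Onecut2, so leaving them out narrows the difference by construction and bears on no cause. The part of gastric RNA, or of the length of gut sampled, in the Onecut2 difference was not tested.

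**Figure D3:**
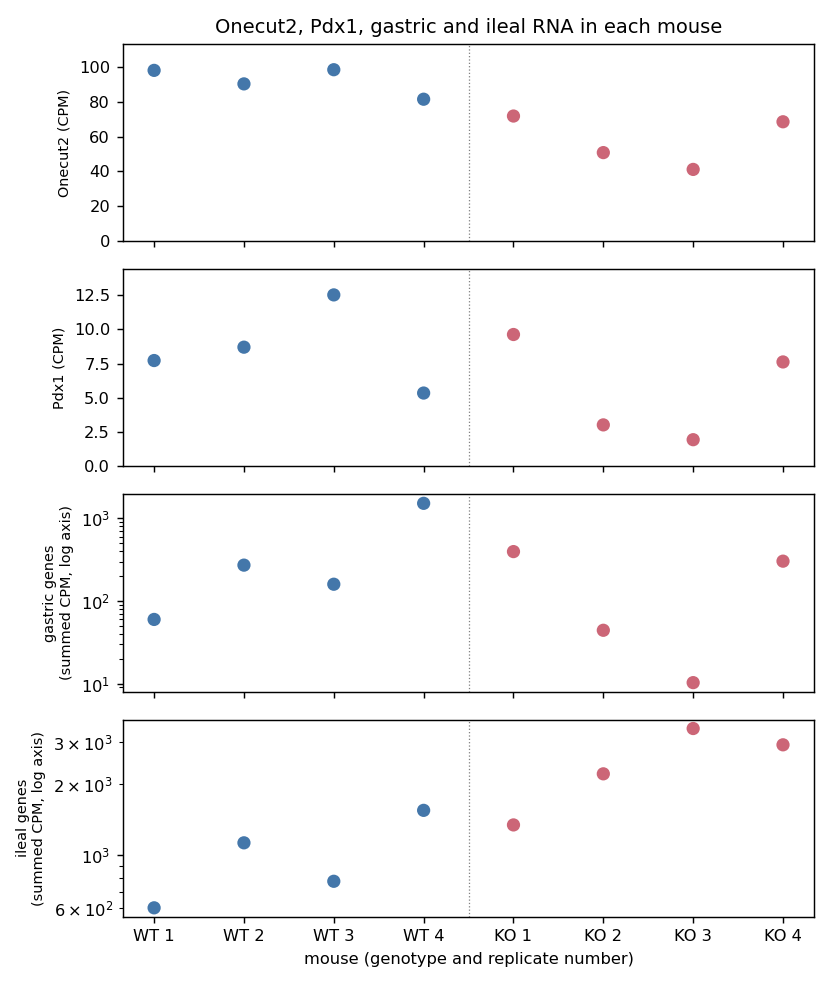
The panels plot, from top to bottom and for each of the 8 mice, the CPM of Onecut2 and of Pdx1 (linear axes from 0) and the summed CPM of the gastric and of the ileal genes (log axes). KO 2 and KO 3 are lowest in Onecut2, Pdx1 and gastric RNA, and WT 4 is highest in gastric RNA (1524 CPM).

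Of the other gut identity factors, 24 of 30 listed genes were tested, none passed after adjustment, and without adjustment 3 had a p under 0.05 with more RNA in KO and 1 with less, beside 5.33% and 3.05% of all genes. Without 1 mouse the higher count ran from 1 (without WT replicate 2 or 3 or KO replicate 4) to 4 and the lower count from 1 to 3 (without KO replicate 1). Their median log2 fold change was 0.01, beside -0.02 over all genes tested. The lower gene was Zfpm1, which encodes FOG1, a cofactor that binds GATA factors. Zfpm1 ran from 130 to 165 CPM in the WT mice and from 78.3 to 119 CPM in the KO mice, with KO replicate 2 lowest as it was for Gata4. It was the 1 gene of these 24 without overlap, beside 4.05% of all genes. Its log2 fold change was -0.49 ± 0.14 (SE; exact permutation p = 0.0286, edgeR adjusted p = 0.518). The 3 higher genes were Osr2 (0.42), Maf (1.10), a factor of enterocyte gene expression, and Nr1h4 (0.40), the bile acid receptor FXR. Onecut1 and Cdx4, the relatives of Onecut2 and Cdx2 that have no known main role in adult intestine, had at most 3 counts in a mouse.

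The Hox genes, whose nested expression marks position along the body axis, were mostly low. Of 39 listed, 8 were tested, and none of these passed even without adjustment, with a median log2 fold change of 0.45. The most posterior ones, Hoxa13, Hoxb13 and Hoxd13, had 0 counts in all 8 mice, which at the lowest depth allows up to 0.148 CPM (3 counts, counting error only). They are expressed in the hindgut. The colonic genes Car1, Aqp8 and Insl5 stayed under 1.94 CPM, and 7 of 16 colonic genes were tested, with -0.26 as their median log2 fold change. Of the 7, 1 was lower and 0 higher before adjustment (p under 0.05), beside 3.05% and 5.33% of all genes, and without 1 mouse the lower count ran from 1 to 3 (without WT replicate 2 or 3) and the higher count from 0 to 1. The lower gene, Prdm16, is also expressed in the upper small intestine. It was the 1 gene of the 7 without overlap (37.6 to 45.5 CPM in WT, 23.5 to 35.6 CPM in KO), beside 4.05% of all genes. Its log2 fold change was -0.48 ± 0.14 (SE; exact permutation p = 0.0286, edgeR adjusted p = 0.518). None of 12 pancreatic acinar genes passed the filter, and none was above 0.606 CPM.

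The genes that GATA4 is known to hold in check or that mark the ileum stood mostly higher in KO, while Gata4 itself was not called. Of 16 such genes, 11 were higher and none lower at an unadjusted p under 0.05, beside 5.33% and 3.05% of all genes, none passed after adjustment, and the median log2 fold change was 1.34. Naaladl1 was the 1 gene of the 16 without overlap, beside 4.05% of all genes, at 173 to 348 CPM in WT and 370.2 to 798 CPM in KO. The list was drawn up with earlier results of these samples known, so its direction is not independent evidence. The labels give no segment, and the part of the stretch of gut sampled in these values was not tested. Fabp6, the ileal bile acid binding protein, stood at 32.0, 292, 151 and 239 CPM in the WT mice and 277, 529, 421 and 583 CPM in the KO mice (1.34 ± 0.54, SE; exact permutation p = 0.0571, edgeR adjusted p = 0.562). KO replicate 1 lay within the WT range and WT replicate 1 stood far below the other mice. Slc10a2, the ileal bile acid importer, ran from 2.31 to 40.8 CPM in WT and from 30.8 to 88.3 CPM in KO (1.78 ± 0.72, SE; edgeR adjusted p = 0.563; 3.0 without WT replicate 4). The other genes with the smallest p were Clec2h (1.34) and Slc51a (1.10). The count of 11 dropped to 7 without WT replicate 3 or without KO replicate 4.

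The genes that GATA4 is known to activate, or that mark the proximal intestine, lay on both sides of their WT level, 15 above and 7 below. Of the 22 tested, 4 were higher and 0 lower at an unadjusted p under 0.05, beside 5.33% and 3.05% of all genes, none passed after adjustment, and the median log2 fold change was 0.25. The count of 4 was 8 without WT replicate 4 or without KO replicate 1 and 3 to 6 without any other mouse, and the lower count was 0 or 1 (1 with the replicate block). The higher ones were Npc1l1 (0.86), the intestinal cholesterol transporter, Osr2, the iron oxidase Heph (0.67) and Sct (0.36), which encodes secretin. Npc1l1 was the 1 gene of the 22 without overlap, beside 4.05% of all genes, with 131 to 169 CPM in WT and 208 to 398 CPM in KO. Fabp1, a fatty acid binding protein that needs GATA4 in the jejunum, stood at 139, 46.8, 178 and 262 CPM in the WT mice and 70.9, 73.2, 264 and 261 CPM in the KO mice, with a log2 fold change of 0.10 ± 0.57 (SE; exact permutation p = 0.971, edgeR adjusted p = 0.983). Its direction turned without WT replicate 2, KO replicate 3 or KO replicate 4. Lct, the lactase gene, ran from 32.4 to 176 CPM in WT and from 23.6 to 501 CPM in KO, and its log2 fold change was 1.34 ± 0.82 (SE; exact permutation p = 0.40, edgeR adjusted p = 0.688). Without KO replicate 3, its highest mouse, the Lct value was 0.38, and without WT replicate 4 it was 2.07.

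Whether mice with more Gata4 held less of the ileal genes depended on how the 8 mice were compared. Over all 8, Gata4 and the mean log2 CPM of the ileal genes had a Pearson r of -0.42 (exact permutation p = 0.296) and a Spearman rho of -0.57 (exact permutation p = 0.151), and p-values adjusted over the 2 relations were 0.591 and 0.302. Without KO replicate 2 and WT replicate 3, the mice farthest from the median of Gata4, r was -0.28 (exact permutation p = 0.611). Without WT replicate 2, r was -0.53 (exact permutation p = 0.213) and rho was -0.79 (exact permutation p = 0.0480, adjusted p = 0.0960). In deviations from the genotype means r was -0.15 (exact permutation p = 0.724).

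Within the mice with Xist RNA and within those without it, the relation of Gata4 to the ileal genes was closer. In deviations from the means of these groups r was -0.88 (exact permutation p = 0.00694, adjusted p = 0.0139) and rho was -0.90 (exact permutation p = 0.0122, adjusted p = 0.0243), an alternative chosen after the values were seen. Among the mice without Xist RNA, KO replicate 2 had the least Gata4 and the most ileal RNA, and WT replicate 1 had the most Gata4 and the least ileal RNA. Among those with Xist RNA, WT replicate 3 had the most Gata4 and the least ileal RNA, and KO replicates 3 and 4 had less Gata4 and more ileal RNA than either WT mouse. Each of these groups holds 2 mice of each genotype, so the relation includes the difference between genotypes. With the mean of each genotype in each group taken out r was -0.94, on 4 pairs of mice (exact permutation p = 0.25, where the smallest possible is 0.125). Leaving out 1 mouse gave r from -0.97 to -0.79 within the Xist groups, and without WT replicate 3 it was -0.79 with an exact permutation p of 0.0764.

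For the proximal genes, which GATA4 is known to activate, r with Gata4 was -0.07 over all 8 mice (exact permutation p = 0.866) and rho was -0.17 (exact permutation p = 0.703), with adjusted p of 0.866 and 0.703. Without the 2 mice farthest from the median of Gata4 r was 0.06 (exact permutation p = 0.931). Within the Xist groups r was -0.73 (exact permutation p = 0.0660) and rho was -0.76 (exact permutation p = 0.0590), so the direction there was the same as for the ileal genes. This r was -0.41 without WT replicate 3 and -0.94 without WT replicate 1.

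**Figure D4:**
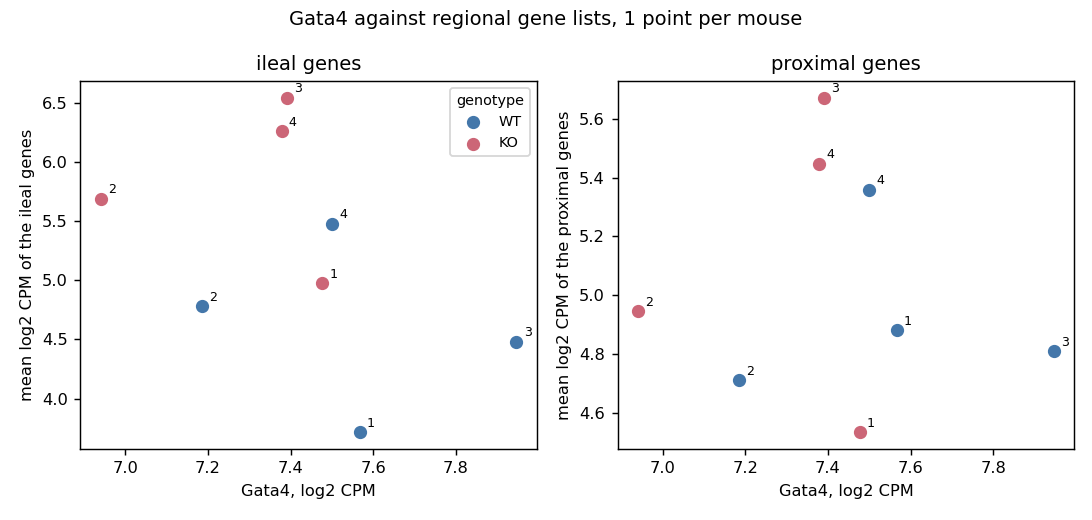
Each point is 1 mouse, with log2 CPM of Gata4 on the horizontal axis and the mean log2 CPM of the tested ileal (left) or proximal (right) genes on the vertical axis, and digits give replicate numbers. The KO mice 2, 3 and 4 are highest for the ileal genes at low to middling Gata4. Mice 1 and 2 (without Xist RNA) lie lower for the ileal genes than mice 3 and 4 (with it) at like Gata4 levels, and within each of these groups the mouse with the most Gata4 is lowest for the ileal genes.

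RNA of villus enterocytes was high in some of the mice that were high in ileal RNA. All 14 markers had a log2 fold change above 0, 4 of them (among them Apoa1, Krt20 and Mgam) at an unadjusted p under 0.05, with a median of 0.92, beside 46.1% above 0 and 5.33% higher at that p over all genes tested, and none passed after adjustment. The count of 4 was 0 without KO replicate 3, 1 or 2 without WT replicate 1, 2 or 3 or KO replicate 4, and 8 without KO replicate 1 or 2, and it was 7 with the replicate block. Their summed level was 2274 to 3975 CPM in WT and 2978 to 9448 CPM in KO, with 9448 CPM in KO replicate 3 and 5953 CPM in KO replicate 4, while KO replicate 1 lay below 3 of the WT mice. KO replicates 3 and 4 are also the mice highest in Maf and in the ileal sum. The part of villus RNA, or of the stretch of gut sampled, in the ileal and proximal values was not tested. The ileal count of 11 was 10 without KO replicate 3 and 7 without KO replicate 4. Immune markers summed to 185 to 515 CPM in WT and 494 to 898 CPM in KO. Most of this sum was Cd74, with 153 to 455 CPM in WT and 425 to 849 CPM in KO. Of the 11 tested, 3 had a higher level in KO with p under 0.05 before adjustment, beside 5.33% of all genes. This count was 0 to 6 without 1 mouse, with 0 without WT replicate 3, and 6 with the replicate block. The 3 were the T cell genes Cd3e and Cd8a (1.29 for the latter) and the antigen-presentation gene Cd74 (0.82). Stroma and muscle markers were near the floor, at 12.6 to 29.3 CPM summed over 12 genes, and none of the 7 tested had an unadjusted p under 0.05 (1 was higher with the replicate block). Of 5 erythroid genes only Hba-a1 was tested (-1.26, edgeR adjusted p = 0.586, and -1.51 to -0.57 without 1 mouse), and the list summed to 0.964 to 4.44 CPM.

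The targets of the factors were described in the same way. Of 11 tested CDX2 targets, 4 were higher and none lower at an unadjusted p under 0.05, beside 5.33% and 3.05% of all genes, with a median log2 fold change of 0.24. The count of 4 was 0 without KO replicate 3, 1 or 2 without WT replicate 1, 2 or 3 or KO replicate 4, and 4 to 6 without the others. They were Slc5a8 (6.38 to 36.4 CPM in WT, 20.9 to 71.8 CPM in KO), Krt20 (116 to 338 and 212 to 542 CPM), Vil1 (622 to 936 and 747 to 1526 CPM) and Cdh17, an intestinal cadherin with a log2 fold change of 0.23. Of the 11, only Cdh17 did not overlap between the groups (712 to 827 CPM in WT, 833 to 1066 CPM in KO), beside 4.05% of all genes. Of 17 tested HNF4 targets, 5 were higher and 1 was lower, beside the same shares of all genes, with a median of 0.53. The count of 5 was 0 without KO replicate 3, 1 to 3 without WT replicate 1, 2 or 3 or KO replicate 4, and 7 to 9 without the others, and with the replicate block 8 were higher and 0 lower. The higher ones included Apoa1 (1.78), Anpep (1.40) and Apob (0.84), genes of lipid transport and of the brush border, and the lower one was Ttr (-0.64), which encodes transthyretin. Without 1 mouse Apoa1 ran from 1.10 to 2.47, Anpep from 0.99 to 1.96 and Apob from 0.52 to 1.06. Many genes of both lists are also made in villus enterocytes, whose RNA was also highest in KO replicates 3 and 4, and its part in these counts was not tested. The lists also share genes, so their counts are not separate. Vil1 is counted as higher in both lists, and Krt20 and Apoa1 are counted among the villus markers too. Of 14 crypt epithelium markers, 3 were higher and 3 lower at an unadjusted p under 0.05, beside 5.33% and 3.05% of all genes, the lower ones being the stem cell genes Lgr5 (-0.50), Olfm4 (-0.34) and Smoc2 (-0.31), and the higher ones Krt8 (0.27), Krt19 (0.20) and Vil1. Without 1 mouse the higher count ran from 1 (without WT replicate 1 or KO replicate 3 or 4) to 3 and the lower count from 2 to 3.

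**Figure D5:**
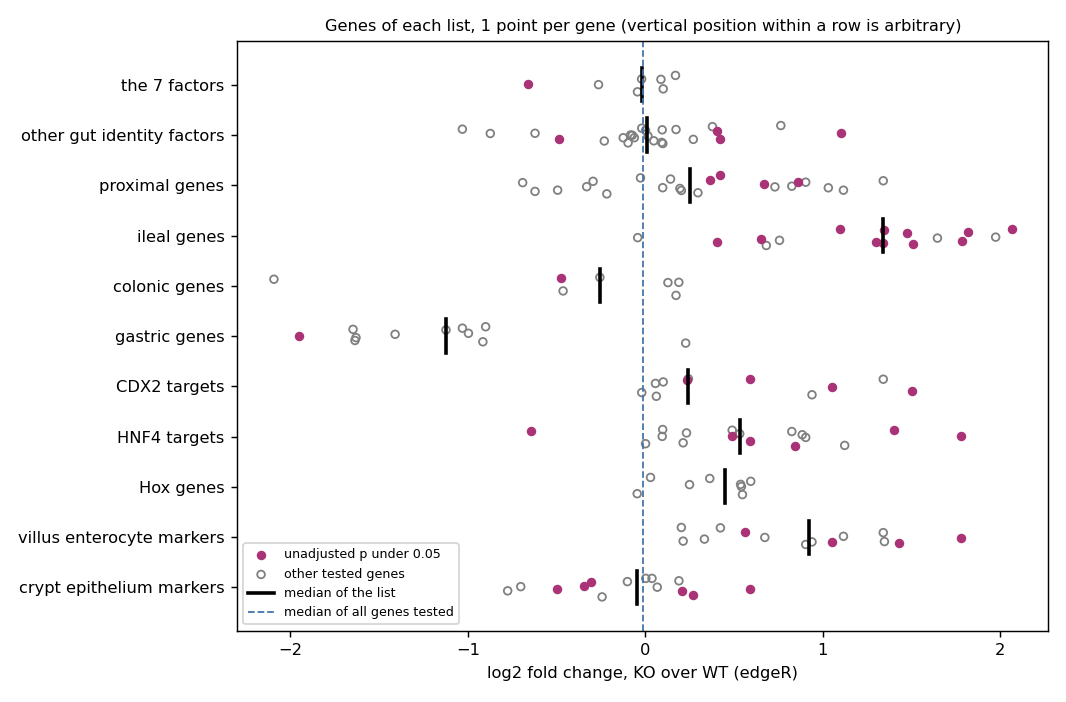
Each point is 1 tested gene of a list, placed by its log2 fold change of KO over WT (horizontal axis), filled where the unadjusted edgeR p is under 0.05, with the median of the list as a black line and that of all genes tested (-0.02) as a dashed line. The 7 factors centre on the dashed line while most of the ileal genes (median 1.34) lie to its right and most of the gastric genes (median -1.12) to its left.

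The factors did not move as 1 block from mouse to mouse. Over the 8 mice, which share genotype groups and differ in depth, Pearson's r of log2 CPM between pairs of the 7 ran from -0.69 for Cdx1 with Gata4 to 0.80 for Hnf4a with Gata4. Among 11336 protein-coding genes with a mean log2 CPM of at least 1, the genes most like Gata4 in pattern were Hscb (r = 0.96), Riok2 (0.95), Prps2 (0.95), Cul4a (0.95) and 0610010F05Rik (0.93), and the most opposed were Bcl2l15 (-0.96), Zbtb43 (-0.96), Tspan1 (-0.94), Cript (-0.94) and Ensa (-0.94). The genes most like Onecut2 were Tmem201 (0.97), Wee1 (0.96) and Slc12a9 (0.96). Those most like Cdx2 were Polr2a (0.98), Agrn (0.97) and Nacc2 (0.97), and those most like Cdx1 were Serf2 (0.96), Ccdc28b (0.95) and Blcap (0.95). For Gata6 they were Ncoa6 (0.98), Ptpn9 (0.97) and Map4k3 (0.97), for Hnf4a Rexo1 (0.97), Chd4 (0.97) and Zfp13 (0.95), and for Hnf4g Sbf2 (0.97), Nipa2 (0.97) and Bco2 (0.97). With 8 mice and so many genes compared, values of this size describe the ranking only.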

How the data were processed

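Crypt RNA of 4 WT and 4 KO mice was compared. The deposited counts are raw reads per gene, which per the labels' processing notes come from reads passed through CASAVA, aligned with HISAT2 2.0.5 and counted with featureCounts 1.5.0-p3, and the authors deposited FPKM values for the same genes and mice. The FPKM were found to equal counts over gene length and library total, times 1 factor per mouse. The genome build and the strand setting are not given in the sources used here, while the deposited start and end of the factors match GENCODE M21 (GRCm38) except for Onecut2. The authors' own DESeq2 columns and lists of their comparison (group means, fold changes, p-values) were not used. Of the 55114 rows, 276 carry no gene name.

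Counts were fitted with edgeR 4.0.16 in R 4.3.3 (filterByExpr with its minimum count of 10, TMM factors, quasi-likelihood test, genotype as the 1 term), with Benjamini-Hochberg adjustment over the 16109 genes tested and a threshold of 0.05. CPM were scaled by the TMM library sizes. Intervals cover 95%. Single genes were also tested by an exact two-sided permutation of log2 CPM over all 70 assignments of the mice, with scipy 1.17.1. DESeq2 1.42.0 and limma 3.58.1 on log2(FPKM + 1) and log2(FPKM + 0.1) were alternatives, beside other scaling factors and filters, a replicate block, the Xist/Y group as a term, and each mouse left out. On counts simulated for this comparison (15817 genes), edgeR found 97% of the 4-fold and 78% of the 2-fold changes, and 5.91% of its calls were false, against 21.0% for DESeq2. The counts were drawn once, with edgeR's own dispersions and library scaling and with 2-fold and 4-fold changes only. This setting may favour edgeR and cannot rank the tools for a gene such as Onecut2. Same-numbered WT and KO mice deviated together from their group means (r = 0.13, 0.50, 0.14 and 0.29 over all genes, 0.087 to 0.48 over autosomal genes, with 2 of the 4 under 0.1), and all but number 3 correlated best with their own number. All 4 being over 0.1 over all genes, the numbers were taken to pair the samples in the replicate block. Same-numbered mice also share the presence of Xist or Y-linked RNA, so these r cannot show that the numbers are true pairs. The labels give the WT mice as littermates without saying which number goes with which. No 2 mice of a genotype agreed within sampling noise.

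The 7 factors and the gene lists were chosen with earlier results of these data known. Named were the 7 factors, Mex3a, genes overlapping a factor, from each list up to 4 genes with the smallest unadjusted p under 0.05 in each direction, Fabp6, Slc10a2, Fabp1, Lct and Pdx1, and the genes most like each factor. Some genes that this rule names are not reported here. Gkn1, Gkn2, Muc5ac, Epcam, Onecut1, Cdx4, Car1, Aqp8, Insl5, Hoxa13, Hoxb13 and Hoxd13 are named outside this rule and were chosen after their values were seen. Lists were described by counts and medians without a test. Some genes stand in several lists, so the counts of different lists are not separate. Among them are Osr2 (identity and proximal), Nr1h4 (identity and ileal) and Vil1 (CDX2, HNF4 and crypt). For each gene, the longest coding transcript of GENCODE M21 (GRCm38) supplied the 3'UTR in which the element was looked for, with Python 3.11.15.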

Additional observations from a re-analysis of the deposited data

Results flagged for a closer look

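Summed levels of 3 lists had 1 mouse far from the other 3 of its genotype, beyond the 95% critical value of Dixon's test for 4 samples, in which the distance to the nearest other mouse is divided by the whole range. This ratio was 0.888 for the colonic genes in WT, where replicate 2 was low (361 CPM against 443 to 454 CPM), 0.855 for the gastric genes in WT, where replicate 4 was high (1524 CPM against 59.9 to 272 CPM), and 0.830 for the immune markers in KO, where replicate 2 was high (898 CPM against 494 to 563 CPM). Of the immune sum in KO replicate 2, 849 CPM were Cd74, against 425 to 483 CPM of Cd74 in the other KO mice. Among 42 groups examined, chance alone flags about 1 in 20, or 2.1. None of the 7 factors had such a mouse in either genotype.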

How the results depend on the processing

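Of the 7 factors, none changed its call except Onecut2, which passed under DESeq2 (-0.66, adjusted p = 0.0376). The false calls on simulated counts do not bear on this call, because those counts were drawn with edgeR's own dispersions. Gata6 reversed to 0.023 and 0.0031 without KO replicates 1 and 2, and Hnf4a to 0.028 without WT replicate 3. Leaving out each mouse gave -0.37 to -0.11 for Gata4, -0.059 to 0.023 for Gata6, 0.066 to 0.15 for Cdx1, 0.035 (without KO replicate 3) to 0.15 for Cdx2, -0.78 to -0.53 for Onecut2, -0.080 to 0.028 for Hnf4a and 0.020 (without WT replicate 2) to 0.35 (without WT replicate 1) for Hnf4g. With the replicate block, which pairs same-numbered mice, the estimates were -0.25 for Gata4, -0.69 for Onecut2 and 0.09 for Cdx2, and no factor's call changed. In that fit 0 genes were called in all, and Mex3a (-4.51) missed the threshold (adjusted p = 0.126 by edgeR). Mex3a also missed it without WT replicate 1, 3 or 4 or KO replicate 1, 3 or 4 (adjusted p of 0.0748 to 0.214 by edgeR). Without 1 mouse the log2 fold change of Mex3a ran from -4.87 to -4.17. Genes called in all were 93 under DESeq2, 2 with no filter, 0 with at least 10 counts in every mouse, 4 with limma on log2(FPKM + 0.1), 3 with limma and no filter, 4 with the Xist/Y group as a term and 0 to 4 when 1 mouse was left out. Genes higher at unadjusted p were 1312 with no filter and 491 to 1305 without 1 mouse, and lower ones 751 with limma and no filter and 355 to 828 without 1 mouse, with the lowest count of higher genes without KO replicate 3 and the highest without KO replicate 1. Listed genes beyond the 7 factors that were called numbered 4 under DESeq2 (Krt8, Naaladl1, Npc1l1 and Slc51a). The ileal count ran from 7 to 13 without 1 mouse. The relation of Gata4 to the ileal genes passed the threshold within the Xist/Y groups (-0.88), chosen after the data were seen. That to the proximal genes turned positive in genotype deviations (0.066), without the 2 mice farthest from the Gata4 median (0.057) and without WT replicate 3 (-0.21 to 0.15 over all mice left out). Among 67 other named genes, 25 of 1204 values reversed: Fabp1 with the Xist/Y term (-0.054) and without 1 mouse (-0.21 to 0.46), Ptpn9 under RLE factors (0.0025), DESeq2 (0.0026), no filter (0.0046), 10 counts in every mouse (0.0011), limma on FPKM + 1 with and without the filter (0.0040) and + 0.1 (0.0044) and without 1 mouse (-0.039 to 0.036), and without 1 mouse Chd4 (-0.13 to 0.018), Map4k3 (-0.094 to 0.041), Ncoa6 (-0.13 to 0.0072), Rexo1 (-0.055 to 0.058) and Sbf2 (-0.0024 to 0.19). The causes were not tested. With 4 mice per genotype the 95% intervals of the 7 factors were 0.35 to 0.95 wide on the log2 scale, so differences well inside that width may have gone undetected.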
